A study of Callithrix jacchus with 39 samples.

Results

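Embryonic stem cells (ESCs) of the common marmoset, a small New World primate, grown in the primed state were compared with the stage of the series that is nearest to them in the embryo, the epiblast after implantation. The comparison used 9 of the 39 RNA sequencing libraries of the series: 3 of the ESC line DSY127, 3 of the ESC line No.40 and 3 of epiblast, chosen by their titles. The labels name DSY127 and No.40 as primed ESCs and carry no mark of a transgene on them, unlike 4 other ESC groups (2 of primed Tg cells and 2 of naive cells, in DSY-c2 and N40), where Tg is not defined. The other libraries came from morulae and from the inner cell mass of 5 blastocyst stages. Embryo day, sex, medium and passage of the 3 groups are not given in the labels, and they leave unsaid whether a replicate is a culture or an embryo of its own. The p-values below therefore measure no more than the spread between libraries of the same group. The difference between DSY127 and No.40 is not part of that spread when their mean is tested.

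The epiblast is the part of the embryo from which the fetal body and the germ line arise. Around implantation it leaves the naive state, marked by factors such as KLF17, KLF4 and TFCP2L1, and enters a state in which OTX2, ZIC and SALL factors accompany the core factors POU5F1, SOX2 and NANOG. Primed ESCs of primates are kept in a state that resembles this later epiblast, with FGF and activin signalling, but outside the tissues that surround it in the embryo: amnion, yolk sac endoderm, extraembryonic mesenchyme and maternal tissue.

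Total counts were 38.8 to 56.7 M (mega, 1e6) per library in these groups, and 15042 to 15076 genes reached 10 counts in the epiblast libraries against 16163 to 16722 in the ESC libraries. Pearson's r of log2 CPM (counts per 1000000 counts, scaled by TMM) across genes was 0.942 to 0.943 between epiblast libraries, 0.985 to 0.988 within DSY127, 0.967 to 0.974 within No.40 and 0.819 to 0.843 between ESC and epiblast libraries. In each of the 9 libraries all 8 measured genes of the shared pluripotency list were present above 1 CPM. Among ESC libraries, No.40 replicate 1 and DSY127 replicate 3 stood apart in differentiation markers: the summed level of 10 primitive streak and mesoderm genes was 1523 CPM in No.40 replicate 1 and 45 to 467 CPM in the other ESC libraries, and that of 13 primitive endoderm and yolk sac genes was 3835 CPM in DSY127 replicate 3, 2894 CPM in No.40 replicate 1 and 1472 to 1940 CPM in the rest. Some counts without these libraries are given below. Without both, the counts of 9 gene lists moved, and not all of these are given. The columns of No.40 replicate 1 were marked as lanes 6 and 7, those of the rest of the 9 libraries as lanes 1 and 2. The part of the lanes was not tested. ESC and embryo samples also differed in source throughout the series. For 850 of 17167 tested genes (4.95%) every one of the 18 ESC libraries, naive ones included, lay above every one of the 21 embryo libraries, and for 199 (1.16%) below. A difference of culture from tissue and a difference of sample source cannot be told apart in the comparison below.

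Most genes differed. Of 17167 genes tested, 11103 (64.7%) were called at an adjusted p under 0.05 in edgeR's quasi-likelihood test with Benjamini-Hochberg adjustment, 6010 (35%) higher and 5093 (29.7%) lower in the ESC lines; 4554 of the former and 2698 of the latter changed by at least 2-fold. The groups did not overlap for 10119 genes (58.9%). The shares of 35% higher and 29.7% lower are the background for the counts in gene lists below. Large differences were defined as called genes that changed by 4-fold or more, averaged 10 CPM or more on the higher side and had all 6 ESC libraries on the same side of all 3 epiblast libraries. There were 1581 such genes (9.21%), of which 1088 (6.34%) were higher in the ESC lines and 493 (2.87%) were lower. In the 6 primed Tg libraries 904 of the 1088 were at 10 CPM or more throughout. An average of 10 CPM or more in DSY127 and No.40 was a condition for entering the 1088. For such counts in primed Tg, naive and hatched blastocyst libraries, here and below, no share of all tested genes was computed. Between DSY127 and No.40 199 genes (1.16%) were called, a count that ran from 49 to 382 without 1 library (49 without DSY127 replicate 2, 382 without No.40 replicate 1) and was 82 with the replicate number as a block and 1002 with DESeq2. Of the 1581 large differences, 42 (2.66%) were among the 199.

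**Figure D1:**
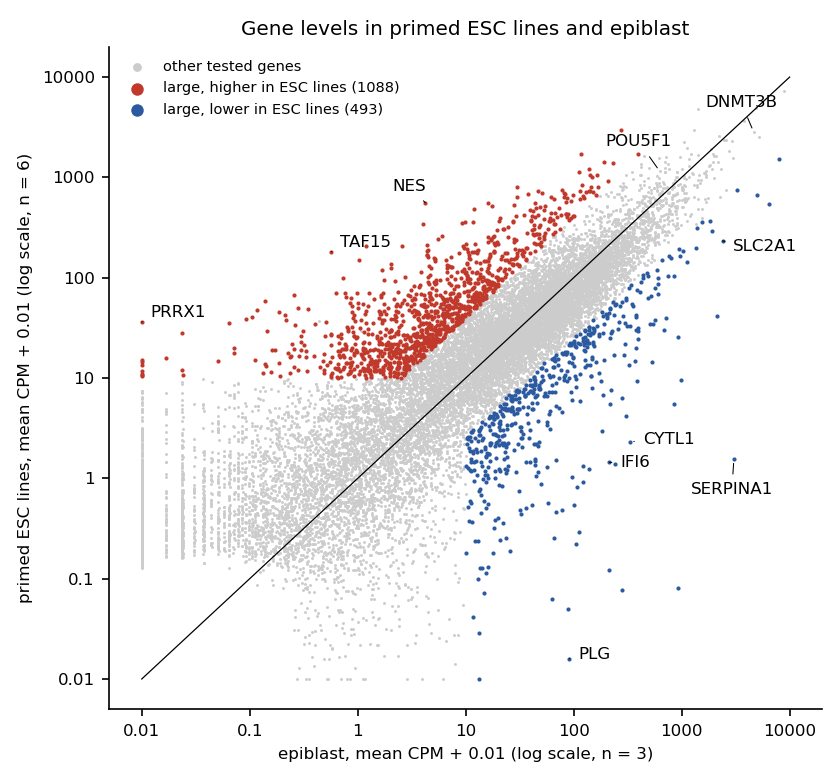
Mean level of each tested gene in 3 epiblast libraries (horizontal, CPM + 0.01, log scale) against 6 primed ESC libraries (vertical, same scale), each point 1 gene and the line marking equal levels. Red points are the 1088 large differences higher in the ESC lines and blue points the 493 lower ones, with SERPINA1 and PLG far below the line and TAF15 and NES far above it.

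Primed culture kept the levels of many genes, HDAC2, POLR2A and RERE among them. A gene was counted as kept when it averaged at least 10 CPM on both sides and the 95% interval of its log2 difference lay within -1 to 1, that is within 2-fold. This held for 4457 genes (26% of those tested and 53.5% of the 8334 genes at 10 CPM or more on both sides), although 2234 of them carried a smaller difference that the test called. The 8 genes below were chosen for the narrowest intervals around 0. HDAC2, a histone deacetylase, measured 424, 398 and 414 CPM in the epiblast libraries and 399 to 451 (median 424) in the ESC libraries, a log2 difference of 0.04 (SE 0.05). POLR2A, the large subunit of RNA polymerase II, measured 423, 474 and 446 CPM in epiblast and 411 to 453 in the ESC lines. RERE, a transcriptional corepressor, was at 100.3, 95 and 106 CPM in epiblast and 95.6 to 102 in ESCs. In all 3 genes the groups overlapped, and the same was true of CEBPZ, BZW1, PPID, RBM26 and PITPNB, whose log2 differences ran from -0.03 to 0.01.

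The steepest falls were genes of secreted plasma proteins and of macrophages. SERPINA1, the protease inhibitor alpha-1 antitrypsin made by liver and yolk sac endoderm, measured 2844, 3114 and 3186 CPM in the epiblast libraries and 0 to 6.34 CPM (median 0.769) in the ESC libraries, 1977-fold lower on means (log2 difference -11.52, SE 0.92, adjusted p = 6.85e-06). PLG, which encodes plasminogen, the precursor of the clot-dissolving enzyme plasmin, was at 95, 97.4 and 81.6 CPM in epiblast and was counted in 1 of the 6 ESC libraries, at 0.0355 CPM. Coagulation factor V (F5) was at 85.7, 118 and 109 CPM in epiblast and 0.0385 to 0.675 (median 0.138) in ESCs, and SERPINA6, the corticosteroid-binding globulin of plasma, at 85.2, 83.8 and 96.5 against 0 to 0.124 (median 0.0206). Every epiblast library was far above every ESC library in these 4 genes. CD163, the haemoglobin scavenger receptor of macrophages, was at 38.2, 71.6 and 78.3 CPM in epiblast and 0 to 0.107 (median 0.056) in the ESC lines. TLR8, an endosomal RNA sensor of myeloid cells, was at 6.94, 6.5 and 26.5 CPM in epiblast and had no count in any ESC library, at least 1366-fold lower when the 6 libraries together are set to 3 counts. SLA, an adaptor of lymphoid and myeloid cells, was 144-fold lower. The 12 largest falls also included CPN2 and SPINK1, both secreted, SLC5A12, a sodium-coupled monocarboxylate transporter (822, 910.3 and 839.6 CPM against 0.123 to 14.6, median 2.52) and CCN4, a secreted matricellular protein (117, 94.5 and 124 CPM against 0.105 to 0.586, median 0.242). Separation of the groups was a condition for entering these 12 genes. In the 3 hatched blastocyst libraries none of them passed 7.34 CPM.

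By a stricter rule, at least 10 CPM in every epiblast library and under 1 CPM in every ESC library, 24 genes (0.14% of those tested, 0.285% of the 8419 genes at 10 CPM or more in every epiblast library) were lost. Of these, 15 had a symbol, and 9 of the 15 belong to the secreted plasma proteins (PLG, SERPINA6, F5, SERPINA11 and F10) or to the macrophage genes (CD163, SLA, CCR1 and FOLR2) that were listed after the values had been seen. Others were CCN4, NOBOX, SLC22A3, DIO1 and NPR3. NOBOX, a homeobox factor of oocytes, measured 13.5 to 15.5 CPM in epiblast and 0.0355 to 0.184 in the ESC lines, and DIO1, an enzyme that activates thyroid hormone, 13.5 to 35.5 against 0.115 to 0.699. The highest level among lost genes belonged to a gene without a symbol, ENSCJAG00000009846, at 899 to 928 CPM in epiblast and 0 to 0.213 in the ESC lines. These genes were low in other ESC libraries as well: 22 of 24 stayed under 1 CPM in all 6 primed Tg libraries and 19 in all 6 naive libraries. In the hatched blastocyst 17 were under 1 CPM in all 3 libraries, and 2 were at 10 CPM or more in all 3. Without DSY127 replicate 3 the count was 34.

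Longer lists of plasma protein and macrophage genes were drawn up after the values were seen and include the falls just named. Their counts describe these libraries and support nothing further. Of 25 tested plasma protein and coagulation genes, chosen after the values were seen, 22 were lower and 1 (F11) higher, 16 of the 22 by the large criterion, with a median log2 difference of -5.77 against 0.14 over all tested genes. Their summed level was 10481 to 11169 CPM in the epiblast libraries and 662 to 935 CPM in the ESC libraries. Transferrin (TF), the iron carrier, contributed 6189, 6373 and 6735 CPM in epiblast and 454 to 666 in ESCs, and the vitamin D binding protein GC 2095, 2082 and 2141 CPM against 0.526 to 169.9. ALB (albumin), F9, F11, F13B and KLKB1 had no count in any epiblast library. Of 13 tested macrophage genes, also chosen afterwards, 12 were lower, 9 of them by the large criterion, and their summed level was 357 to 494 CPM in epiblast and 28.2 to 39.9 CPM in the ESC lines. CSF1R, the receptor for the main growth factor of macrophages, measured 9.37, 7.44 and 6.42 CPM in epiblast and 0.0619 to 0.406 in ESCs, and the leukocyte marker PTPRC 7.75, 7.73 and 10.5 against 0 to 0.192. In these bulk libraries fewer cells of a type and less RNA per cell cannot be told apart, and the part that other cells in the epiblast samples had in the falls was not tested.

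Markers of yolk sac endoderm moved with them. Of 12 tested primitive endoderm and yolk sac genes, 7 were lower and none higher (median log2 difference -1.91), and without No.40 replicate 1 and DSY127 replicate 3 all 12 were lower. Their summed level was 6859.9 to 7065 CPM in epiblast and 1472 to 3835 CPM in ESCs, with AFP under 1 CPM in every library of both. Apolipoprotein B (APOB), the structural protein of lipoproteins, measured 571, 541 and 523 CPM in epiblast and 16.8 to 66.1 (median 28.7) in the ESC lines, 15.8-fold lower (adjusted p = 5.18e-06). CUBN, the cubilin receptor of absorptive endoderm, was at 65.2, 54.1 and 51.3 CPM against 2.05 to 6.32, and the pioneer factor FOXA2 at 99.2, 91.9 and 69.8 CPM against 0.561 to 21.5. The groups were separate in all 3 genes, but the ESC libraries themselves spread widely in FOXA2. SERPINA1, the first of the 12 falls, belongs to this list too.

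Primitive streak and mesoderm genes showed 4 members lower and none higher of 9 tested, where 29.7% and 35% of all tested genes were. Leading them, MESP1, a factor of cardiac mesoderm, measured 2.02, 2.04 and 0.446 CPM in epiblast and 0 to 0.0368 in ESCs, and TBX6, of paraxial mesoderm, 4.92, 10.3 and 13.8 against 0.811 to 2.53. SNAI2, a repressor of epithelial genes, was at 48.8, 35.9 and 41.9 CPM against 1.75 to 12.2, a call that was lost when all 39 libraries were fitted together (adjusted p = 0.0768). PDGFRA, a growth factor receptor that is also in the yolk sac list, was not called without epiblast replicate 1, 2 or 3 or DSY127 replicate 1 (adjusted p = 0.024 with all libraries and at most 0.0625 without 1). The streak regulators TBXT, EOMES and MIXL1 were not called; the summed level of the list was 471 to 530.3 CPM in epiblast and 45 to 1523 CPM over the ESC libraries, whose range enclosed it. Of 7 amnion genes, VTCN1 and KCNMA1 were lower, a share near the 29.7% of all tested genes, and none was higher. VTCN1, an immune checkpoint ligand expressed in amnion, measured 17.3, 13.9 and 14.7 CPM in epiblast and 0.0175 to 1.8 in ESCs. Of 8 blood and endothelium genes, 3 were lower, against 29.7% of all tested genes, and CDH5 was higher. TEK, the angiopoietin receptor, was 8.21-fold lower (73.8, 44.7 and 59.3 CPM against 3 to 15.3). The summed levels of the last pair of lists were 75.8 to 96.4 and 349 to 372 CPM in epiblast and 23.7 to 80.2 and 189 to 372 CPM in ESCs.

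The steepest rises were led by a mesenchymal factor, PRRX1, a homeobox gene of limb and craniofacial mesenchyme. It had no count in any epiblast library and measured 15.3 to 63.1 CPM (median 33.4) in the ESC lines, at least 1770.2-fold higher when the 3 epiblast libraries together are set to 3 counts (adjusted p = 3.75e-05). TBX4, a T-box factor of hindlimb and allantois, was likewise at 0 in epiblast and at 10.6 to 21.3 CPM (median 13.3) in ESCs, at least 707-fold higher. NFIX, of the nuclear factor I family, was counted in 1 epiblast library (0.0203 CPM) and measured 8.25 to 26.1 CPM (median 13.2) in the ESC lines. The groups were separate in all 3 genes, which the choice of the 12 largest rises required. In the primed Tg libraries PRRX1 was at 0.151 to 0.469 CPM and NFIX at 0.271 to 1.7 CPM, while TBX4 was at 6.01 to 15.4 CPM (CPM scaled over all 39 libraries). Germ cell genes went both ways: TDRD9, NOBOX, KIT, PRDM1 and DND1 were lower, and 3 others were among the 12 largest rises. STRA8, a gatekeeper of meiotic entry, was at 0 in epiblast and at 7.01 to 13.5 CPM (median 10.4) in ESCs (at least 515-fold higher), SOHLH2, a helix-loop-helix factor of germ cells, at 0.202, 0.542 and 0 CPM against 17.1 to 109 (median 75.3), and TDRD1, a Tudor protein of the piRNA pathway, at 0, 0.75 and 0 CPM against 15.3 to 44.4 (median 38.6).

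The rest of the 12 largest rises were TAF15, ZNF445, LMBR1L, PIK3CD, ITGA2 and PCDHGA4. TAF15, an RNA-binding protein of the FET family that associates with TFIID, measured 0.566, 0.75 and 0.365 CPM in the epiblast libraries and 159 to 196 CPM (median 189) in the ESC libraries, 325-fold higher (log2 difference 8.34, SE 0.21, adjusted p = 4.87e-09). It was also low in the hatched blastocyst, at 0.0865 to 0.789 CPM, and high in the primed Tg and naive cells, at 144 to 223 and 139 to 223 CPM. The zinc finger gene ZNF445, a regulator of imprinting, went the same way, at 0.263, 0 and 0.0608 CPM in epiblast, 0 to 0.0751 in the hatched blastocyst and 34.4 to 54.8 (median 50.4) in the ESC lines. LMBR1L was at 0, 2.54 and 0 CPM in epiblast and 48.8 to 65.8 (median 54.7) in ESCs, and PIK3CD, a catalytic subunit of phosphoinositide 3-kinase, at 0, 0 and 0.182 against 16.3 to 28.5 (median 19). ITGA2, a collagen-binding integrin, ranged from 1.25 to 82.4 CPM (median 35.5) among the ESC libraries, the widest spread of the 12, and the clustered protocadherin PCDHGA4 from 15.7 to 49.7 (median 24.1); the latter shares exons with other members of its cluster, so its reads may be split among them. Of the 12 largest rises, 7 were higher in every one of the 18 ESC libraries than in every one of the 21 embryo libraries. Among the 12 largest falls none showed the mirror pattern. Separation of the 6 primed ESC libraries from the 3 epiblast libraries was a condition for both sets of 12.

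**Figure D2:**
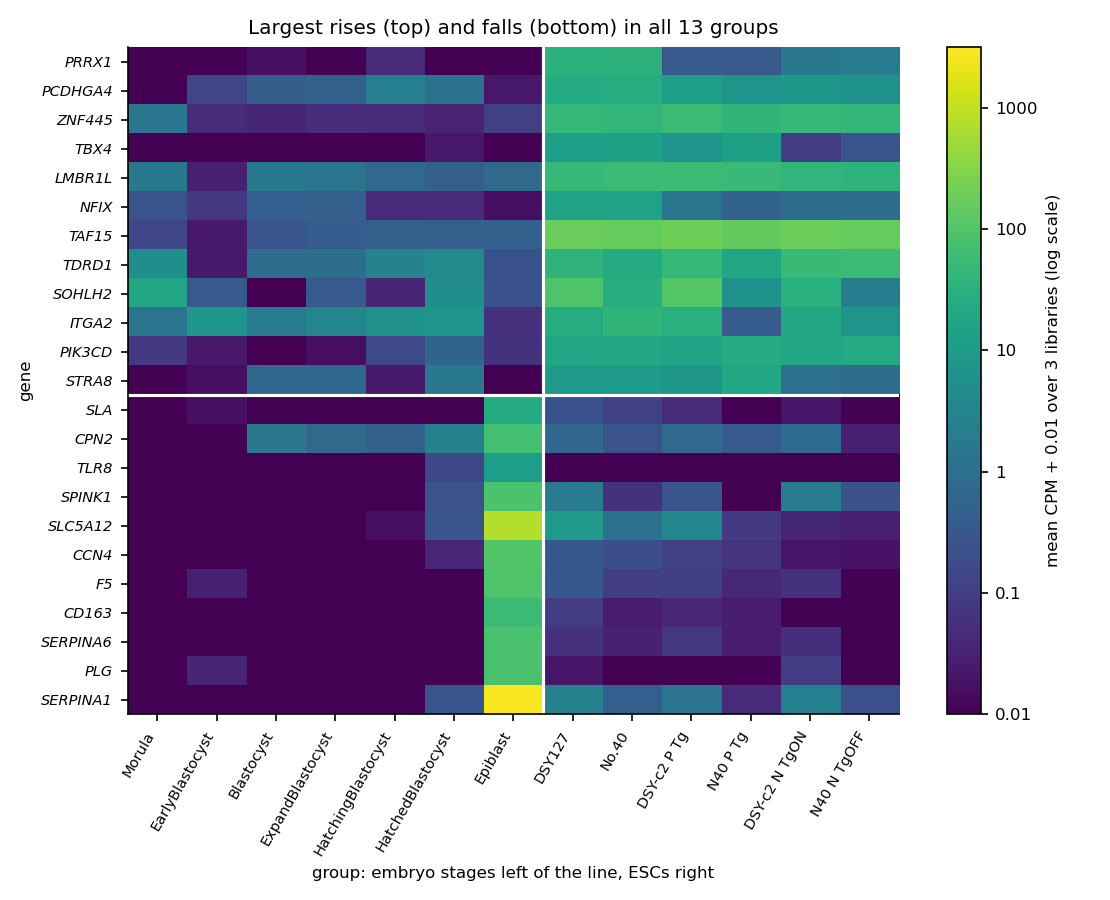
Mean level of the 12 largest rises (top) and of 11 of the 12 largest falls (bottom) in all 13 groups of the series, 3 libraries each, in CPM + 0.01 on a log colour scale, with embryo stages left and ESC groups right of the white line. The falls are far higher in the epiblast column than in any other, while TAF15, ZNF445 and LMBR1L are low in all embryo columns and high in all ESC columns.

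By the mirror of the rule for lost genes, 47 genes (0.274% of those tested, 0.53% of the 8871 genes at 10 CPM or more in every ESC library) were added in primed culture, 23 of them with a symbol. Besides PRRX1, PCDHGA4, ZNF445, TBX4, TAF15, TDRD1, SOHLH2 and PIK3CD they included TAF5L, a subunit of histone acetyltransferase complexes (0.125 to 0.728 CPM in epiblast, 31.3 to 38.4 in ESCs), MGAT5, an enzyme of N-glycan branching (0.162 to 0.991 against 32 to 39.5), GRPR, the receptor for gastrin-releasing peptide (0.283 to 0.792 against 11.4 to 26.7), and DAAM2, a formin of WNT signalling (0.0405 to 0.208 against 14.2 to 22.8). Of the 47, 35 were at 10 CPM or more in all 6 primed Tg libraries and 29 in all 6 naive libraries. None was at 10 CPM in all 3 hatched blastocyst libraries, and 18 were under 1 CPM there. For 39 of the 47 (83%) all 18 ESC libraries lay above all 21 embryo libraries, and the same held for 443 of the 1088 large rises (40.7%), against 4.95% of all tested genes. Of the 24 lost genes, 2 lay below the embryo libraries in this way, as did 21 of the 493 large falls (4.26%). All of these sets were chosen with 6 of the ESC libraries already separate from the 3 epiblast libraries. Shares above those of all tested genes therefore follow in part from the choice.

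The core pluripotency genes were expressed in both groups, POU5F1 and NANOG somewhat higher in the lines and SALL4 and UTF1 lower. Of 8 tested genes of the shared pluripotency list, 4 were higher and 3 lower, where the background was 35% and 29.7%, and the median log2 difference was 0.41. POU5F1 (OCT4), the central factor, measured 599, 631 and 651 CPM in epiblast and 953 to 1500.2 CPM (median 1099.7) in the ESC libraries, 1.84-fold higher (adjusted p = 9.06e-05). NANOG was at 226, 229 and 269 CPM in epiblast and 301 to 512 (median 384) in ESCs, and the RNA-binding protein LIN28A at 175, 167 and 188 against 345 to 426 (median 363). The groups were separate in these 3 genes, but in the fit of all 39 libraries their adjusted p-values were 0.113, 0.328 and 0.103. SOX2, the partner of POU5F1, overlapped between groups (77.8, 78.8 and 68.6 CPM against 67.6 to 114, median 80.3; log2 difference 0.16, SE 0.13) and met the rule for kept genes. SALL4, a zinc finger factor that supports POU5F1, was lower in every ESC library, at 106 to 141 CPM (median 126) against 236, 220.1 and 232. The largest fall of the list was UTF1, a chromatin-associated factor, with 83.8, 75.4 and 86 CPM in epiblast and 6.52 to 12.4 (median 9.26) in ESCs, 8.53-fold lower (adjusted p = 1.91e-07).

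Of 12 naive pluripotency genes tested, 6 were higher in the ESC lines, against 35% of all tested genes, and TBX3 was lower, with a median log2 difference of 2.11. PRDM14, a repressor that safeguards pluripotency, measured 20.3, 15.3 and 19.6 CPM in epiblast and 152 to 286 (median 218) in ESCs, 12.1-fold higher (adjusted p = 9.04e-08). KLF4 was at 30.3, 22.5 and 29.1 CPM against 109 to 164 (median 138), NLRP7, a maternal-effect gene, at 34.5, 47.6 and 38.2 against 116 to 655 (median 367), and DPPA5, an RNA-binding protein of early embryos, at 11.8, 10.8 and 8.3 against 31.7 to 271 (median 131). Each of these 4 passed the large criterion, and in DPPA5 and NLRP7 the DSY127 libraries held the higher ESC values. Naive cells lay higher still in KLF4 (216 to 850.3 CPM), NLRP7 (1999 to 2409.9) and DPPA5 (518 to 774), but not in PRDM14 (123 to 219). A pair of naive markers stayed near 0 in both groups: ESRRB measured 0, 0.167 and 0.689 CPM in epiblast, 0.526 to 1.16 in primed ESCs and 31.5 to 75.2 in naive cells, and ARGFX, called higher, rose from 0 to no more than 0.639 CPM. The calls of ARGFX and DPPA2, 2 of the 6, were lost in the fit of all 39 libraries (adjusted p = 0.0528 and 0.0824). KLF17 (2.21, 0.0417 and 2.61 CPM against 0.456 to 9.82), KLF5 (21, 9.13 and 19.8 against 11.5 to 66.4), TFCP2L1 (1.68, 0 and 0.0405 against 2.15 to 6.35) and NODAL (138, 120.4 and 141 against 25.3 to 241) were not called. In TFCP2L1 the groups were separate. It was called with all 39 libraries (adjusted p = 0.00932) and DSY127 alone (0.0458), but not No.40 alone (0.101). Leaving out 1 library gave adjusted p-values of 6.61e-05 to 0.095 for TFCP2L1 and 0.00116 to 0.591 for NODAL. TBX3 was at 70.8, 52.7 and 61.1 CPM in epiblast and 10.1 to 36.6 in ESCs.

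Genes of the primed and postimplantation list were mostly lower in the primed lines: 7 of 12 fell and 2 rose, with a median log2 difference of -0.95. CYTL1, a secreted cytokine-like protein, showed the largest fall of the list, with 313, 308 and 369.9 CPM in the epiblast libraries and 1.84 to 2.98 CPM in the ESC libraries, 143-fold lower (log2 difference -7.16, SE 0.18, adjusted p = 4.55e-09). Its level was 1.56 to 5.55 CPM in primed Tg cells, 0.0414 to 2.09 CPM in naive cells and 0 to 0.952 CPM in the hatched blastocyst. OTX2, a homeobox factor of the exit from the naive state and of the anterior epiblast, measured 75.5, 95 and 85.3 CPM against 9.84 to 24.8 (median 17.3), and SALL2, a zinc finger factor, 494, 481 and 589 against 107 to 195 (median 137). The WNT antagonist SFRP2 was at 1521, 1486 and 1635 CPM in epiblast and 352 to 619 in ESCs, lower in every ESC library, but its adjusted p was 0.24 with all 39 libraries in 1 fit. ZIC2, by contrast, was kept (236, 259 and 236 CPM against 142 to 297, median 192; log2 difference -0.18, SE 0.20), and NEFL and HMGA2 overlapped between groups. ETV1 and SALL1 were called lower with overlapping groups, but not in the fit of all 39 libraries (adjusted p = 0.482 and 0.323), and SALL1 not with DSY127 alone (adjusted p = 0.253). FGF2 (0.0809, 0.438 and 0 CPM against 1.63 to 6.76) and ETV4, a target of FGF signalling (21.4, 17.8 and 24.4 against 36.9 to 74.3), were the members that rose, ETV4 not in the fit of all 39 libraries (adjusted p = 0.525).

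**Figure D3:**
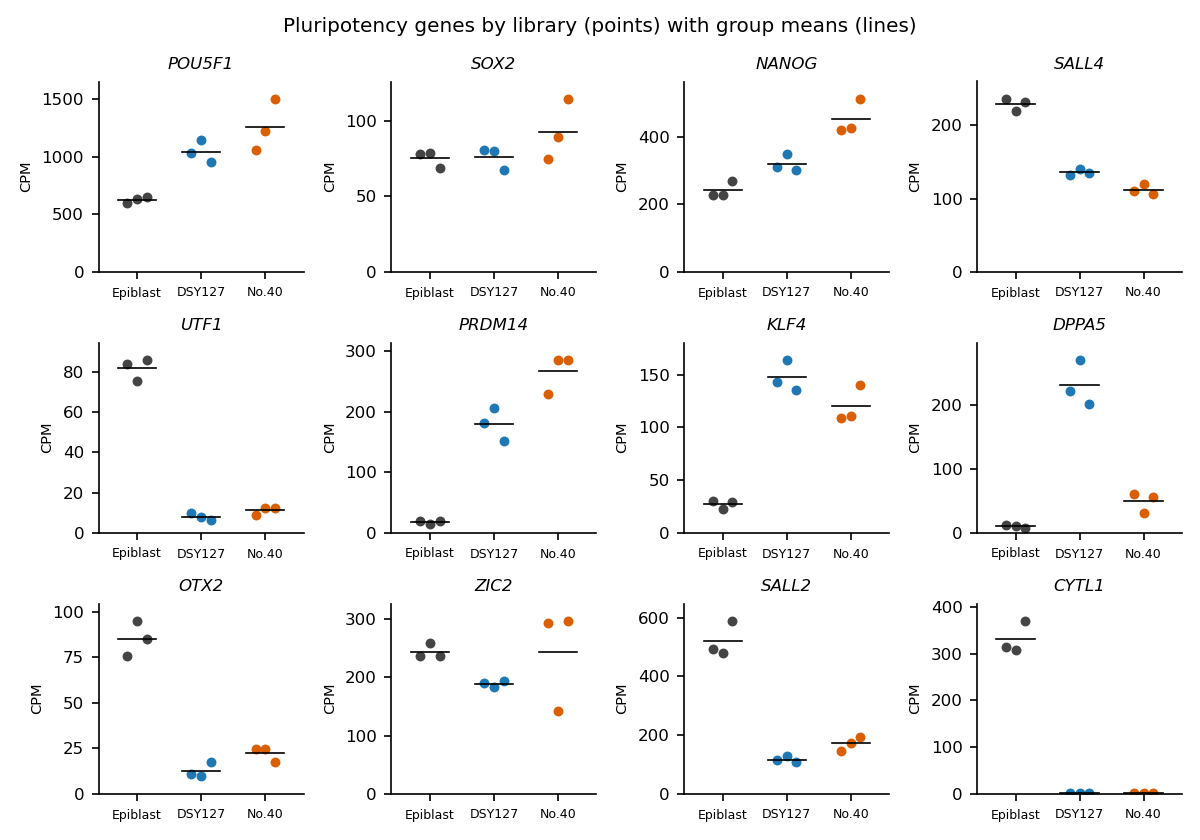
Level in CPM of 12 pluripotency genes in each library of epiblast (grey), DSY127 (blue) and No.40 (orange), 1 point per library with the group mean as a line and each vertical axis starting at 0. POU5F1, NANOG, PRDM14, KLF4 and DPPA5 lie higher in both ESC lines, SOX2 and ZIC2 overlap, and SALL4, UTF1, OTX2, SALL2 and CYTL1 lie lower.

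Of 16 epithelial polarity and junction genes, 8 were lower in the lines and 4 higher, where 29.7% and 35% of all tested genes were, and 9 met the rule for kept genes, among them EPCAM (844, 808 and 903 CPM against 523 to 831). OCLN (occludin), a tight junction protein, measured 373, 336 and 345 CPM in epiblast and 47.1 to 59.1 (median 50.8) in ESCs, 6.71-fold lower (adjusted p = 1.11e-08), and the apical linker protein ezrin (EZR) 1580.5, 1533 and 1499.7 against 319 to 531. CLDN3 was lower, at 9.78 to 17 CPM against 95.6, 84.2 and 107, while CLDN4, another claudin, was higher, at 55.6 to 126 against 14.6, 20.9 and 18.4 (adjusted p = 0.103 with all 39 libraries in the fit). Epithelial cadherin (CDH1) was not called. Of 8 neural genes, 4 were lower and 3 higher. NES (nestin), an intermediate filament of neural progenitors and other dividing cells, measured 3.05, 3.85 and 5.71 CPM in the epiblast libraries and 463 to 614 CPM (median 586) in the ESC lines, 133-fold higher (adjusted p = 1.93e-08). It was at 592 to 640.2 CPM in primed Tg cells, 57.4 to 102 in naive cells and 1.75 to 5.2 in the hatched blastocyst. The adhesion molecule NCAM1 went the other way, with 80.8, 114 and 90.3 CPM in epiblast and 15.3 to 39.5 in ESCs, and PAX6 was not called. The summed level of the list was 214 to 222 CPM in epiblast and 699.6 to 912 CPM in ESCs, most of it NES.

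Matrix genes moved in both directions. Among 10 genes of extraembryonic mesenchyme and fibroblasts, 5 were higher and DCN was lower. COL1A1, a chain of fibrillar collagen, measured 118, 128 and 90.8 CPM in epiblast and 641 to 1614 (median 1130.4) in ESCs, and COL6A3 18.6, 8 and 15.4 against 63.6 to 189; both calls were lost in the fit of all 39 libraries (adjusted p = 0.0809 and 0.0661). Decorin (DCN), a small proteoglycan of connective tissue, was at 525, 576 and 596 CPM in epiblast and 0.0702 to 147 (median 15.9) in the ESC lines, and the fall was not called with DSY127 alone (adjusted p = 0.0688). PRRX1 and the smooth muscle genes ACTA2 and TAGLN were the other members that rose. The summed level of the list was 1833 to 2022 CPM in epiblast and 1465 to 3243 CPM in ESCs, which overlap, and the part of mesenchymal cells in these rises was not tested. Of 17 extracellular matrix genes, 7 were higher and 3 lower, where 35% and 29.7% of all tested genes were. TNC (tenascin C), a matrix glycoprotein of remodelling tissue, was at 1.86, 0.208 and 1.7 CPM against 20.4 to 136 (median 58.1), while vitronectin (VTN) was at 1129, 1066 and 1170.3 against 101 to 173 (median 146) and the basement membrane linker NID2 at 598, 611 and 608 against 29.4 to 155. Without DSY127 replicate 3 the number of lower matrix genes was 6, and without No.40 replicate 1 as well it was 7.

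Among integrins, receptors for the matrix, ITGA3 (296, 245 and 272 CPM against 18.7 to 87.3), ITGA6 (582, 582 and 529 against 159 to 279.6) and ITGB5 (414, 479 and 398 against 136 to 233) were lower, and ITGA1 and ITGA2 higher, of 13 tested. Of all tested genes 29.7% were lower and 35% higher. ITGA1 (5.54, 0 and 0.162 CPM against 13.9 to 24.1) was no longer called without any 1 of 6 libraries, its adjusted p being 0.0358 with all 9 and at most 0.0793 without 1.

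The main glucose transporter gene and most glycolysis genes were lower in the lines, as were most genes that hypoxia induces. Of 15 glycolysis genes, 9 were lower and 3 higher, and of 14 hypoxia response genes 9 were lower and 3 higher, with medians of -0.47 and -0.99. Of all tested genes 29.7% were lower and 35% higher, with a median of 0.14. The glucose transporter SLC2A1 (GLUT1), in both lists, measured 2274, 2338 and 2563 CPM in epiblast and 157 to 271 CPM (median 239.9) in ESCs, 10.3-fold lower (adjusted p = 6.99e-08). Hexokinase 2 (HK2) was at 173, 188 and 190.3 CPM against 30.2 to 58.7, and the platelet form of phosphofructokinase, PFKP, at 477, 491 and 491 against 68.7 to 131. GAPDH, GPI and ENO1 were the members that were higher, and 9 of the 15 genes met the rule for kept genes. PDK1, a kinase that shuts pyruvate out of the mitochondrion under hypoxia, was at 145, 157 and 150.3 CPM in epiblast and 16.5 to 27.6 (median 23.8) in ESCs, and the collagen hydroxylase subunit P4HA1 at 400.3, 430.1 and 431 against 69.2 to 132. PFKFB3, which makes the activator of phosphofructokinase and is itself induced by hypoxia, was the exception by size, at 1.29, 1.52 and 0.405 CPM in epiblast and 32.5 to 43.1 (median 38.4) in ESCs, 35.3-fold higher. The groups were separate in each of these 6 genes. In the naive cells HK2 and PDK1 were at 334 to 525 and 92.2 to 117 CPM, whereas SLC2A1 was at 85.4 to 158 CPM.

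Genes of oxidative phosphorylation and of the amino acid response were mostly higher in the lines. Of 20 oxidative phosphorylation genes, 14 were higher and 3 lower (median 0.78), where 35% and 29.7% of all tested genes were. NDUFB3, an accessory subunit of complex I, measured 2.23, 3.33 and 3.93 CPM in epiblast and 58.3 to 64 (median 60.3) in ESCs, 19.1-fold higher, and COX5B, of cytochrome c oxidase, 12.6, 13.9 and 9.38 against 72.2 to 84.8. Of 13 genes of the amino acid response and of serine synthesis, 9 were higher and none lower (median 1.15). SLC7A5, the transporter of large neutral amino acids, was at 11.5, 9.35 and 6.64 CPM in epiblast and 188 to 455 CPM (median 374) in the ESC lines, 38.2-fold higher (adjusted p = 1.86e-07). Asparagine synthetase (ASNS) measured 18.5, 13.4 and 16.4 CPM against 209 to 287 (median 261), and the mitochondrial serine enzyme SHMT2 89.7, 88.6 and 83.1 against 182 to 259. In all 3 the ESC libraries lay above the epiblast libraries, as they did in primed Tg cells for SLC7A5 (277 to 444 CPM). In the fit of all 39 libraries 3 of the 13 were called higher, and under No.40 alone 1 was called lower.

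All 18 tested ribosomal protein genes were higher in the ESC lines, with a median log2 difference of 1.70, and 8 of them passed the large criterion. RPL30 measured 44.7, 45.3 and 55.5 CPM in epiblast and 476 to 566 (median 509.7) in ESCs, and RPS18 198, 184 and 198 against 1359 to 1541. The summed level of the 18 genes was 5771 to 6256 CPM in the epiblast libraries and 14518 to 17392 CPM in the ESC libraries. The hatched blastocyst held 149 to 489.7 CPM of RPL30 and 742 to 2114 CPM of RPS18, above the epiblast values. Proteasome genes, a list added after values were seen, followed: 19 of 24 were higher and 2 lower, with PSMA4 at 7.22, 15.5 and 9.9 CPM against 84.6 to 103. The 24 proteasome genes summed to 2075 to 2233 CPM in epiblast and 3727 to 4456 CPM in ESCs.

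**Figure D4:**
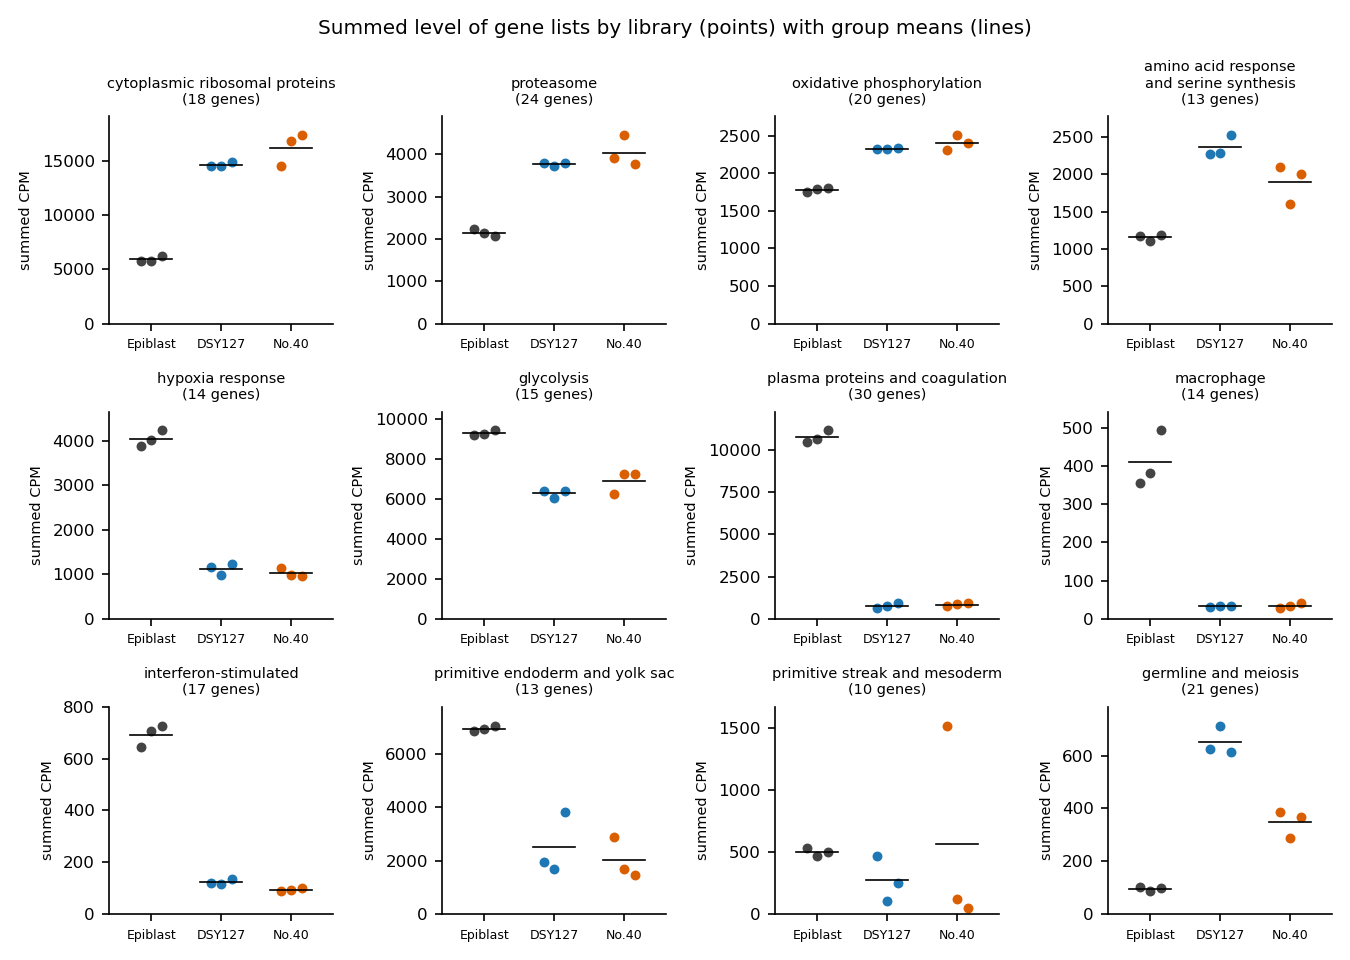
Summed level in CPM of 12 gene lists in each library of epiblast (grey), DSY127 (blue) and No.40 (orange), 1 point per library with the group mean as a line, each axis starting at 0 and the number of genes in brackets. Ribosomal, proteasome and amino acid genes sum higher in every ESC library, hypoxia, plasma protein, macrophage and interferon-stimulated genes sum lower, and the streak list ranges widely among ESC libraries.

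Of 22 cell cycle genes, 12 were lower in the lines and 5 higher, where 29.7% and 35% of all tested genes were, and 16 met the rule for kept genes. CDK2, the kinase of S phase entry, measured 209.6, 227 and 216 CPM in epiblast and 45.2 to 58.5 (median 47.2) in ESCs, 4.45-fold lower (adjusted p = 4.62e-08), and MCM2, of the replicative helicase, 692, 728 and 801 against 293 to 381. The 6 helicase subunits MCM2 to MCM7 were all lower, and so were PCNA, CCNE1, CCNA2 and PLK1. The mitotic kinase CDK1 was at 55.2, 47.2 and 48.4 CPM against 144 to 281, and its partner cyclin B1 (CCNB1) at 82.5, 81.9 and 72.8 against 224 to 334, higher in every ESC library. BUB1, CDC20 and MKI67 were not called. The count of higher members depended on the libraries, and was 2 without epiblast replicate 2 and 3 without epiblast replicate 3, DSY127 replicate 1 or DSY127 replicate 2.

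The signalling pathways held genes that were higher and genes that were lower, from 7 of 16 called for WNT to 9 of 10 for BMP, where 64.7% of all tested genes were called. In the NODAL and activin pathway 7 of 14 genes were higher and 2 lower. INHBA, the subunit of activin A, had no count in epiblast and measured 3.15 to 41 CPM (median 7.41) in ESCs, at least 744-fold higher, and was at 0.126 to 0.883 CPM in primed Tg cells. GDF3, a ligand of the same receptors, was at 55.3, 58.6 and 44.5 CPM against 174 to 523, the type I receptor ACVR1B at 8.74, 10.2 and 18.3 against 41.7 to 91.7 and the proprotein convertase FURIN at 22.5, 13.4 and 24.5 against 71.5 to 103. In the BMP pathway 5 of 10 genes were higher and 4 lower. Chordin (CHRD), a secreted BMP antagonist, was at 45.1, 49.7 and 76 CPM in epiblast and 1.77 to 5.24 (median 3.65) in ESCs, 15.7-fold lower, while noggin (NOG), another antagonist, had no count in epiblast and measured 11.1 CPM in No.40 replicate 1 and 0.246 to 1.32 CPM in the other ESC libraries. Of 10 FGF and ERK pathway genes, 5 were lower and 3 higher, and the receptors diverged: FGFR2 measured 227, 239.6 and 206 CPM against 37.6 to 66.6 (median 57.2), and FGFR3 14.6, 12.8 and 14.1 against 30.2 to 63.8. In the WNT pathway 4 of 16 were lower and 3 higher, with NOTUM, a secreted WNT deacylase, at 32.6, 40.2 and 41.3 CPM against 4.54 to 10.8. The LIF receptor subunit IL6ST was lower (149, 140.4 and 145 CPM against 50.1 to 85) and STAT3, which acts below it, higher (46.9, 42.5 and 54.8 against 85.5 to 128). IL6ST was not called in the fit of all 39 libraries (adjusted p = 0.104).

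All 8 tested genes of DNA methylation and demethylation were lower in the lines, with a median log2 difference of -0.71, and 5 of the 8 nevertheless met the rule for kept genes. DNMT3B, the de novo methyltransferase of the epiblast, measured 4624, 4659 and 4634 CPM in the epiblast libraries and 2043 to 3449 CPM (median 2921) in the ESC libraries, 1.63-fold lower (adjusted p = 0.000699), and the maintenance enzyme DNMT1 111, 148 and 115 against 34.4 to 65.4. The oxidase TET2 was at 50.7, 26.8 and 42.9 CPM against 11.8 to 21.5. In the fit of all 39 libraries 3 of the 8 were called. Imprinted genes, which are expressed from 1 parental copy, moved in both directions: 5 of 9 were lower and 2 higher. The growth factor IGF2 was at 385, 378 and 403 CPM in epiblast and 2.08 to 30.1 (median 3.99) in ESCs, 41.4-fold lower, and the cell cycle inhibitor CDKN1C at 545, 502 and 549.7 against 6.35 to 21.1 (median 15.3), 37.2-fold lower (adjusted p = 4e-07). PEG10, a retrotransposon-derived gene, was at 2.02, 0 and 2.88 CPM in epiblast and 43.5 to 85.9 in ESCs, and ZDBF2 at 4.73, 1.65 and 7.43 against 42.2 to 126. The groups were separate in these 4 genes, and the counts do not say which parental copy was read.

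The interferon response gene IFI6 was lower and the antigen presentation gene B2M was higher. IFI6, a mitochondrial protein induced by interferon, was at 202, 209 and 232 CPM in epiblast and 0.728 to 2.81 (median 1.17) in ESCs, 149-fold lower (adjusted p = 6.81e-08). B2M, the light chain of class I antigen-presenting molecules, was higher, at 87.7 to 149 CPM against 31, 36.5 and 36.9. Of 9 antigen presentation and interferon genes, 3 were lower and 2 higher, where 29.7% and 35% of all tested genes were. Of 12 heat shock and chaperone genes, 7 were lower and 3 higher, none by the large criterion, and HSPH1 was at 925, 956 and 763 CPM against 397 to 457. FOSB, an immediate early factor, had no count in epiblast and measured 3.75 to 23.9 CPM (median 6.88) in ESCs, at least 569-fold higher, while MYC was at 358, 322 and 356 CPM against 181 to 262. Cholesterol synthesis was mixed, with 6 of 15 lower and 4 higher, and 11 of the 15 met the rule for kept genes. The 1 large change was HMGCS1, at 69.8, 60.5 and 90.3 CPM against 295 to 627. Of 7 p53 target genes, 3 were higher and 2 lower, of 7 trophoblast genes 3 were higher and 2 lower, and of 7 primordial germ cell genes 2 were higher and 3 lower. Among these KIT, a receptor of germ cells, was at 38.7, 52 and 59.8 CPM against 6.24 to 18.6. The summed level of the trophoblast list was 157 to 175 CPM in epiblast and 55 to 219 CPM in ESCs. The 3 tested genes of maternal endometrium (HOXA11, ESR1 and LIFR) were higher in ESCs. LIFR lost its call without epiblast replicate 1, with No.40 alone and without both DSY127 replicate 3 and No.40 replicate 1. It was also not called in the fit of all 39 libraries (adjusted p = 0.299). With its untested members the list summed to 0.833 to 7.09 CPM in epiblast and 10.8 to 29.1 CPM in ESCs. PGR and PRL were under 1 CPM in every library of both groups.

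**Figure D5:**
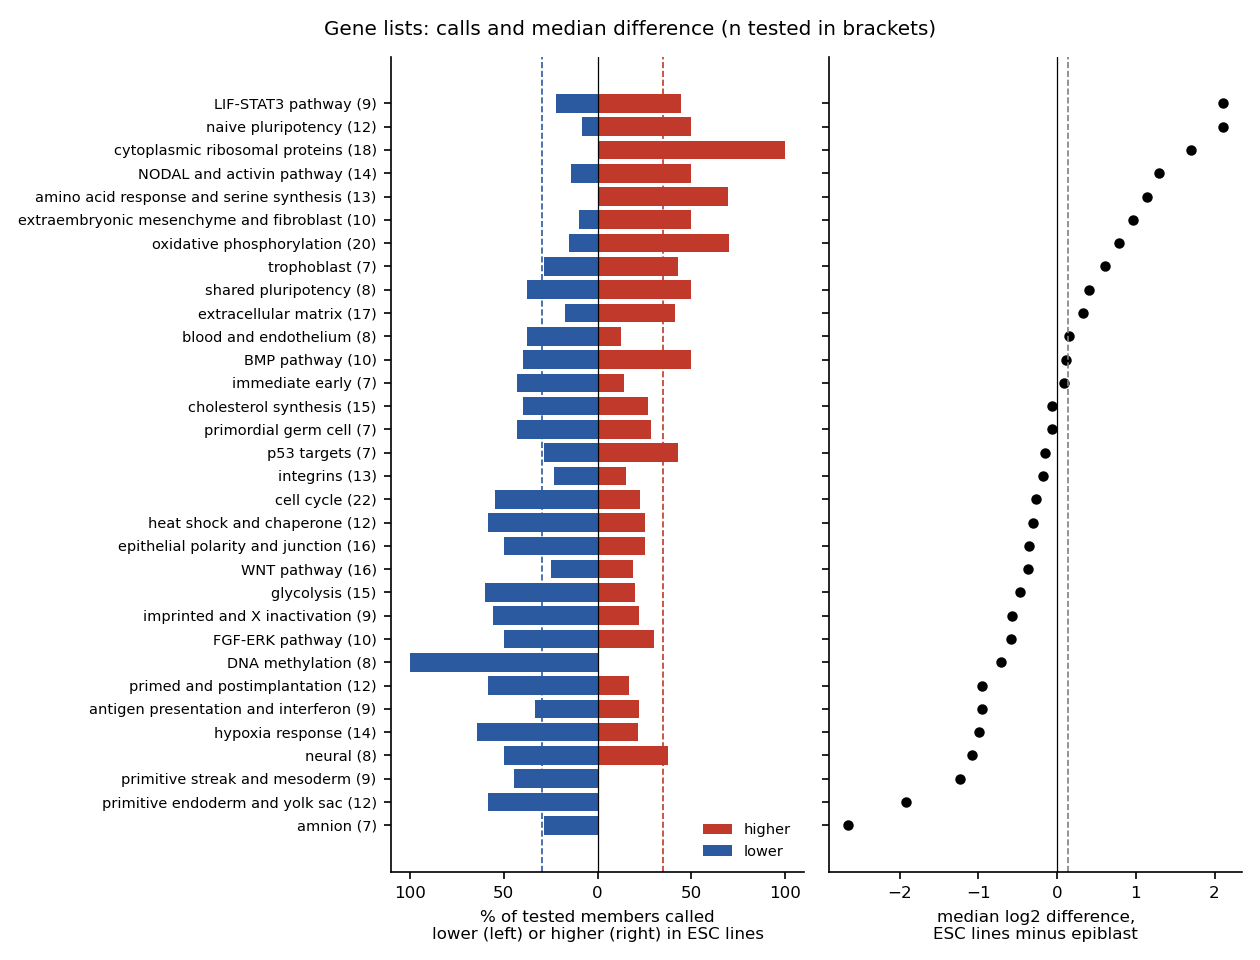
Gene lists with at least 5 tested members, with the share called lower (blue, left) and higher (red, right) in the ESC lines in the left panel and the median log2 difference in the right panel. Dashed lines mark the shares of all tested genes (29.7% and 35%) and their median of 0.14; lists added after values were seen are not drawn. The ribosomal list is higher and the DNA methylation list lower in all members, and among the lists drawn amnion and yolk sac have the lowest medians.

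The lines agreed on most of these differences but not on all. Of the 199 genes called between them, 102 were higher in DSY127 and 97 in No.40. For 23 genes, 13 of them with a symbol, DSY127 and No.40 were called in opposite directions against the epiblast; because both contrasts share the 3 epiblast libraries, the levels are given side by side. RBM44, an RNA-binding protein of germ cells, measured 14.6, 15.5 and 29.4 CPM in epiblast, 74.4, 78.8 and 71.3 in DSY127 and 6.56, 1.14 and 3.09 in No.40. SYCP1, a component of the synaptonemal complex of meiosis, measured 9.08, 11.1 and 13.2 CPM in epiblast, 24.5, 37.3 and 22 in DSY127 and 7.39, 3.57 and 4 in No.40. MYH9, the heavy chain of nonmuscle myosin IIA, was above the epiblast in every DSY127 library and below it in every No.40 library (507.6, 502.3 and 439.7 CPM in epiblast, 949, 800.5 and 1066 in DSY127, 279, 286 and 98.9 in No.40). TCAF1, a regulator of an ion channel, showed the reverse order, at 14.3, 20.8 and 9.82 CPM in epiblast, 6.62, 4.51 and 6.13 in DSY127 and 27.8, 40.5 and 43.9 in No.40. In each of these 4 genes the 3 groups did not overlap. SYCP1, MYH9 and TCAF1 still met the rule for kept genes, because opposite differences cancel in the mean of the lines. For TCAF1 the log2 difference from epiblast was -1.38 in DSY127 and 1.32 in No.40.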

How the data were processed

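The authors deposited a table of read counts per gene, with 2 lane columns per library. Per the labels' protocols, RNA was extracted with RNeasy Mini columns and poly(A)+ RNA made into libraries with the TruSeq Stranded mRNA LT kit; per the submitters' processing notes, the tools were Trim Galore 0.4.0, STAR 2.5.3a and featureCounts 1.5.2, while neither genome build nor annotation is given in the sources used here. The lanes of each library were summed (chi-square per gene 1.92 to 2.0 between lanes of a library and 29.1 to 173 between libraries), and 6 columns of 3 libraries were not used. Even counts made up 60.5 to 63.8% of values, so mates may have been counted separately, and halved counts were tried as an alternative. Gene symbols matched 12660 of 30811 gene IDs (41.1%), which carried 76.5 to 78.7% of counts; genes without a symbol were tested but are in no list.

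Counts of the 9 libraries were filtered (filterByExpr), scaled by TMM and tested in R 4.3.3 with edgeR 4.0.16, using the robust quasi-likelihood test of the mean of DSY127 and No.40 against epiblast, with Benjamini-Hochberg adjustment over 17167 genes. Log2 differences come from this fit, the largest rises and falls were ranked by log2 CPM with a prior count of 2, and folds are ratios of mean CPM. CPM of other libraries were scaled over all 39 libraries. CPM carry no gene length, so levels are not compared between genes, and precision at these depths is set by the spread between libraries. Named genes were the 12 largest rises and falls among called, non-overlapping genes with a symbol and a mean of 10 CPM or more, the 8 kept genes with the narrowest intervals, all pluripotency genes, and up to 5 members of each other list by size among those called; others were chosen after values were seen. The members and lists were chosen with earlier results of these data known; the lists of plasma proteins, macrophages, proteasome and those under Other observations were added after the values were seen. Of 577 listed genes, 371 matched and 360 were tested; the lists of mitochondrial genome and replication-dependent histone genes matched none. Alternatives were DESeq2 1.42.0 and its size factors, upper quartile scaling, other filters and thresholds, each line alone, a replicate block, a fit of all 39 libraries and leaving out each library. The scripts were tested on simulated data. Promoter sequences were not analysed here, and some named genes are not reported here.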

Additional observations from a re-analysis of the deposited data

Results flagged for a closer look

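For 7 of the named genes the difference from epiblast was not the same in the DSY127 and No.40 lines, by the edgeR quasi-likelihood test of DSY127 against No.40 with Benjamini-Hochberg adjustment over all tested genes. Both contrasts share the 3 epiblast libraries. DPPA5 was 4.49 above epiblast on the log2 scale in DSY127 and 2.27 above it in No.40, a difference between lines of 2.22 (adjusted p = 0.00402). NLRP7 was 3.78 above epiblast in DSY127 and 2.20 in No.40, differing by 1.59 (adjusted p = 0.0277). Both early embryo genes were above epiblast in every library of both lines. The pluripotency regulator LIN28B was 1.27 above epiblast in DSY127 and 0.42 in No.40, differing by 0.85 (adjusted p = 0.00793). EPCAM, an epithelial adhesion protein, was at -0.09 in DSY127 and -0.63 in No.40, differing by 0.54 (adjusted p = 0.0109). The receptor KIT was at -1.50 and -2.72, differing by 1.22 (adjusted p = 0.0216), and the WNT deacylase NOTUM at -2.01 and -2.99, differing by 0.98 (adjusted p = 0.0468). The laminin receptor subunit ITGA6 was at -1.12 and -1.74, differing by 0.62 (adjusted p = 0.0109). In all 7 genes DSY127 was the higher line.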

How the results depend on the processing

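None of the 179 named genes called changed direction under the alternatives run; the 23 genes that the lines moved in opposite directions are in the report. The count of differing genes was 6329 (3241 higher and 3088 lower) in the fit of all 39 libraries, where the median over all genes shifted by -0.14, and 5195 against a fold of 2. Large differences numbered 4044 at 2-fold, 766 at 8-fold and 2798 with a mean of 1 CPM. Lost and added genes numbered 7 and 8 at 20 against 0.5 CPM and 44 and 98 at 5 against 1 CPM, and lost genes 40 with DSY127 alone and 42 with No.40 alone. Leaving out 1 library gave 24 to 34 lost and 47 to 69 added genes (65, 63 and 69 without epiblast replicates 1, 2 and 3). Kept genes numbered 1884 within 1.5-fold and 2300 at 50 CPM. For the changes without another threshold (all 39 libraries, 1 line alone, 1 library left out) the cause was not tested.

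Calls between DSY127 and No.40 numbered 1002 with DESeq2, 82 with the replicate block and 49 to 382 without 1 library. Same-numbered libraries of the lines had correlations of deviations of 0.024, -0.14 and -0.239, so the numbers did not pair them; with the block 10651 genes differed from epiblast. Without DSY127 replicate 3 and No.40 replicate 1, a choice made after seeing the data, 10073 genes differed (5320 higher, 4753 lower), 1632 by the large criterion, with 34 lost, 49 added, 4199 kept and 131 called between the lines. Of 179 named genes called, 48 lost the call in at least 1 alternative, 14 of them outside the fit of all 39 libraries alone; PDGFRA was among these. The counts of 25 gene lists moved in the fit of all 39 libraries, most of them not given here. Those of 9 lists moved without DSY127 replicate 3 and No.40 replicate 1. For small lists 1 library also moved a count: without No.40 replicate 2, 2 streak genes were higher and 4 amnion genes lower, without No.40 replicate 1, 4 NODAL genes were lower, without epiblast replicate 3, 3 cholesterol genes were lower, and without epiblast replicate 1 or 2, 1 heat shock gene was higher.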

Other observations

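The gene lists below were chosen after the values had been seen, so their counts describe these libraries and support nothing further. Of 13 HOXA and HOXB genes, the factors that pattern the body axis, 8 were lower in the ESC lines and 3 higher, with a median log2 difference of -2.89. HOXB5 measured 43.1, 46.7 and 33.3 CPM in epiblast and 0.0736 to 1.07 CPM in ESCs, and HOXB2, HOXB3 and HOXB6 also passed the large criterion. The 3 that were higher, HOXA2, HOXA11 and HOXA13, are HOXA genes, and HOXA4 was among those that were lower. Targets of hedgehog signalling were lower as well: GLI1, a transcriptional effector that is itself induced by the pathway, was at 108, 103 and 87 CPM against 13.7 to 20.7, and the inhibitor HHIP at 17.6, 22.3 and 26.9 against 1.53 to 3.04. GLI3, which acts mainly as a repressor in the absence of ligand, was higher, at 13.8 to 18.2 CPM against 0.506, 0.458 and 4.86. The epiblast libraries lay on one side of all 6 ESC libraries in each of these 4 genes, and in the pathway list as a whole 7 of 12 genes were lower and 4 higher.

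Interferon-stimulated genes were lower in the lines in 11 of 16 cases and RIGI was higher, with 10 large falls. IFIT3, an antiviral effector, measured 25.3, 37.5 and 29.8 CPM in epiblast and 0.228 to 1.6 in ESCs, and IFIH1, a sensor of double-stranded RNA, 35.7, 23.1 and 31.5 against 3.33 to 13.2. Their summed level was 644 to 729 CPM in epiblast and 87.8 to 134 CPM in ESCs. Germline and meiosis genes were higher in 11 of 19 cases and lower in 2 (TDRD9 and NOBOX). Besides STRA8, SOHLH2 and TDRD1, the large rises were TDRKH, a partner of PIWI proteins (5.18, 4.06 and 4.84 CPM against 91.5 to 121), and KHDC3L, of the maternal subcortical complex (24.2, 14.4 and 16.1 against 111 to 264).

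Parts of the basal transcription machinery differed by large factors while others did not. Of 30 genes of RNA polymerase II and its general factors, 19 were higher, 9 lower and 9 kept, and 6 passed the large criterion: TAF15, TAF8, POLR2I, POLR2J, GTF2A1 and GTF2H3. GTF2A1, a subunit of TFIIA, measured 0.162, 0.979 and 1.64 CPM in epiblast and 34.4 to 40.5 in ESCs. DYNC1H1, the heavy chain of cytoplasmic dynein that most dividing cells need, measured 3.95, 7.46 and 0.729 CPM in epiblast and 297 to 398 in ESCs, and 0.606 to 2.7 CPM in the hatched blastocyst. None of the other 14 dynein and dynactin genes tested passed the large criterion.

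Some large rises were not shared by the other primed cells of the series. Of the 1088 genes, 14 stayed under 1 CPM in all 6 primed Tg libraries, and 3 of these have a symbol: PRRX1, INHBA and AGTR2, a receptor for angiotensin II. INHBA was at 0.126 to 0.883 CPM there. In all 14 genes No.40 replicate 2 held the highest ESC value, and replicate 1 was the highest of DSY127. PRRX1, for example, measured 52.8, 33.2 and 19 CPM in DSY127 and 33.6, 63.1 and 15.3 in No.40. What this shared order reflects, such as other cells in the cultures, was not tested. Of the 493 large falls, 112 were at 10 CPM or more in all 6 primed Tg libraries and 60 were under 1 CPM.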
